A study of Mus musculus with 32 samples.

Results

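Skeletal muscle is built from sarcomeres and from the membranes that release and take back calcium, and 40 genes of this machinery were followed here through tumors and tumor stroma of mice with and without the prostaglandin E2 receptor EP2. The genes were taken as a fixed list, and for each the probe with the highest mean level over the 32 arrays was kept, among 45616 gene and probe names on the array. All 40 genes had a probe. They comprise 9 genes of the filaments and their regulators, 11 of the Z-disc and intermediate filament, 6 troponins, 8 of calcium handling and 6 of energy supply and protein turnover. Across another division, 7 are forms typical of slow fibres, 11 are forms typical of fast fibres, and 22 are neither.

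MCG 101, a transplantable mouse sarcoma, had been implanted in all hosts, so every group carried the same tumor line and the genotype is that of the host. The 4 groups were stroma from EP2 knockout hosts (knockout stroma), stroma from wild-type hosts (wild-type stroma), tumor from EP2 knockout hosts (knockout tumor) and tumor from wild-type hosts (wild-type tumor). Each group held 8 one-colour arrays, 4 labelled female and 4 labelled male. The age of the hosts, the site of implantation and the way stroma was separated from tumor are not given in the sources used here. Nothing in the labels says that the arrays of a group came from separate animals, so the p-values measure the spread between these samples.

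A muscle fibre contracts when a nerve impulse reaches the T-tubule, the voltage sensor there opens the ryanodine receptor, and calcium from the sarcoplasmic reticulum binds troponin on the actin filament. Myosin then pulls on actin until the calcium pump has refilled the reticulum. Slow and fast fibres do this with different forms of myosin, troponin, calsequestrin and calcium pump, so transcripts of these forms mark the fibre types in a piece of tissue.

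Promoter sequences are shown for 3 members of slow fibres (Tnnt1, Tnnc1, Myoz2), whose levels set single stroma arrays apart, for 2 members of fast fibres (Mylpf, Atp2a1), and for Ckm, the classical target of the myogenic factors. Each is given 5′ to 3′ along the strand of the gene, from 250 bases before the listed start to 50 bases after it, from RefSeq, build GRCm38.p6. Capitals mark matches to the E-box CANNTG that myogenic factors bind, to the TATA box TATAAA, to the MCAT motif CATTCC, to the MEF2 site and to the CArG box, on either strand.
Tnnt1 promoter, chr7:4515926-4516225, minus strand: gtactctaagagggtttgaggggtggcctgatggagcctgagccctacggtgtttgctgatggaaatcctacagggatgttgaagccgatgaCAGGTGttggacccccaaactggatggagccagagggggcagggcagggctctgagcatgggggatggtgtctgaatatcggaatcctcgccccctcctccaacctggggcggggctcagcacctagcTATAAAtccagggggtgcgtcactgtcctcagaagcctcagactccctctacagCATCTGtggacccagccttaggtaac
Tnnc1 promoter, chr14:31208062-31208361, plus strand: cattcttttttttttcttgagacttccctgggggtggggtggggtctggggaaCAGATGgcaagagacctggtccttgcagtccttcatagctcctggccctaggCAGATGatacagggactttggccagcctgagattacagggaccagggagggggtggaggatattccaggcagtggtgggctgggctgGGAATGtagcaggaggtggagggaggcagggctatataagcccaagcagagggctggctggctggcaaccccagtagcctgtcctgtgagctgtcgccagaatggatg
Myoz2 promoter, chr3:123034938-123035237, minus strand: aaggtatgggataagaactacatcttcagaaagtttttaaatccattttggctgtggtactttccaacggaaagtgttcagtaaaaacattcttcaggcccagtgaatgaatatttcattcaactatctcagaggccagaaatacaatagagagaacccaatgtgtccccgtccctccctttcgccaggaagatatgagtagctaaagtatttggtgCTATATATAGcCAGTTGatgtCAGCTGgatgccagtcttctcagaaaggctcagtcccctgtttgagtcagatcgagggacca
Mylpf promoter, chr7:127211358-127211657, plus strand: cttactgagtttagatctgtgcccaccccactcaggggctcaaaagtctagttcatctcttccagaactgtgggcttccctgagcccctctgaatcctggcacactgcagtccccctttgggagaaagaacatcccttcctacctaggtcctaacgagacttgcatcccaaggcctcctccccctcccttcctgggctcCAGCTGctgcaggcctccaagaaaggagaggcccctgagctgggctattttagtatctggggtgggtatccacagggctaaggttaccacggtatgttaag
Atp2a1 promoter, chr7:126463024-126463323, minus strand: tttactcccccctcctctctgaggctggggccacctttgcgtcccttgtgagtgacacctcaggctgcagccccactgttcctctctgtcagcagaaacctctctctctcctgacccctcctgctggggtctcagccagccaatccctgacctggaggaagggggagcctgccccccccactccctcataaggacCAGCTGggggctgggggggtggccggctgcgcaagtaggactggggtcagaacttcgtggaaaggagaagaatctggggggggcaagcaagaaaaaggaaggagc
Ckm promoter, chr7:19410844-19411143, plus strand: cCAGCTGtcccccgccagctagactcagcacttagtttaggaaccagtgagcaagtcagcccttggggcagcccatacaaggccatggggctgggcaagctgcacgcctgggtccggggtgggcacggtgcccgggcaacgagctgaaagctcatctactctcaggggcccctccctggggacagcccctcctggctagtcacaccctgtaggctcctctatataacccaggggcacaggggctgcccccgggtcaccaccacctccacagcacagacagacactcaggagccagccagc
The Tnnt1 promoter held TATAAA, the Myoz2 promoter held a MEF2 site followed by 2 E-boxes, and the Mylpf, Atp2a1 and Ckm promoters each held a single E-box, spelled CAGCTG. The Tnnc1 promoter held 2 E-boxes and a CATTCC on the other strand.

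Of the 40 members, 30 had a promoter entry. Both strands were searched, and every CAGCTG is at the same time a match of the general E-box. The CAGCTG form was found in 17 of the 30 (56.7%), against 18.3% of 27025 genes with any promoter entry. The general E-box was in 27 (90%), against 75% of genes, the MCAT motif in 8 (26.7%), against 16.6%, and the TATA box in 5 (16.7%), against 15.7%. The MEF2 site was in 3 (10%), Myoz2, Ttn and Xirp2, against 0.636% of genes. The CArG box was in 3 others (10%), Acta1, Asb2 and Ldb3, against 1.81%. CAGCTG lay in 4 of 7 slow members and in 4 of the 7 fast members with an entry. A match describes letters in this window and is not evidence of binding.

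Levels are log2 intensities relative to the 75th percentile of the array's signal, so 0 is the level of that percentile, and levels of different genes, read by different probes, are not compared. Between 49.99% and 76.3% of probes per array were well above background, no spot was saturated, and the number of arrays limits the precision. On the first principal component of all probes 2 arrays labelled wild-type stroma, numbers 65 and 82, fell among the tumor arrays, away from the other 14 stroma arrays. Results in wild-type stroma are therefore also given without them. Their markers of proliferating cells averaged 3.23 and 3.31, within the 2.33 to 3.41 of the 16 tumor arrays. In 5 arrays (knockout stroma 95 and 99, wild-type stroma 9, knockout tumor 95 and 99) the X- and Y-linked transcripts went against the label of sex. Wild-type tumor 9 went with its label, so the stroma and tumor arrays numbered 9 differed from each other in these transcripts. Arrays lay on 6 slides, which genotypes and tissues shared unevenly. In tissue pieces, fewer muscle cells and less RNA per muscle cell cannot be told apart.

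Muscle transcripts were abundant in stroma and ranged widely in tumor. The mean of the 40 members was lowest in knockout stroma 12 (3.97), had a median of 5.24 and was highest in knockout stroma 99 (5.81), and averaged 5.13 ± 0.60 (SD, n = 8). In wild-type stroma it was lowest in array 82 (-0.99), had a median of 4.70 and was highest in array 9 (6.38), averaging 3.59 ± 2.66 (SD, n = 8). Knockout stroma was thus tightly grouped, while wild-type stroma held 3 arrays below every knockout stroma array, numbers 82, 65 (0.35) and 68 (2.72).

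In knockout tumor the mean of the members was lowest in array 59B (-4.83), had a median of -0.79 and was highest in array 15 (2.94), averaging -0.84 ± 2.55 (SD, n = 8). In wild-type tumor it was lowest in array 82 (-4.64), had a median of -2.38 and was highest in array 1 (2.38), averaging -2.06 ± 2.24 (SD, n = 8). Knockout tumor 15 and 81 (1.86) and wild-type tumor 1 were the tumor arrays with most muscle signal, and wild-type stroma 82 and 65 lay below all 3. Members well above background numbered 39 or 40 in knockout stroma and 35 to 40 in wild-type stroma, against 20 to 40 in knockout tumor and 18 to 40 in wild-type tumor.

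**Figure D1:**
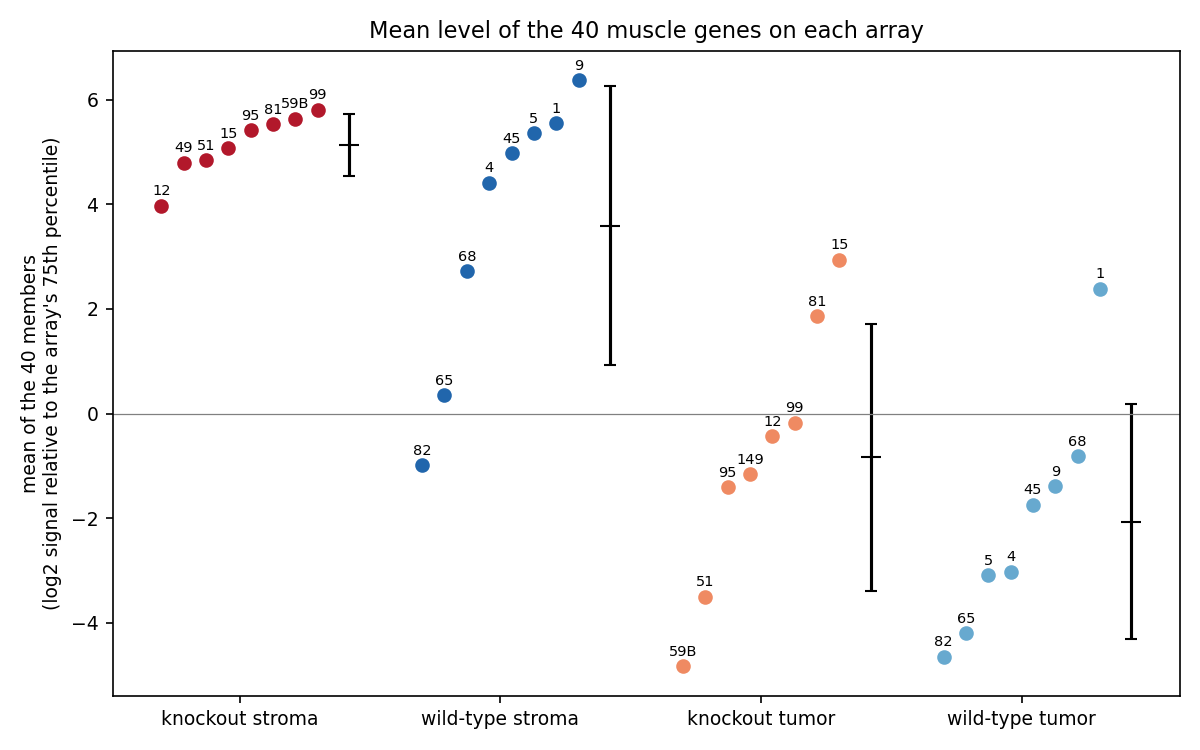
Mean level of the 40 muscle genes on each array (log2 relative to the array's 75th percentile), 8 arrays per group, with the group mean and SD. Knockout stroma arrays lie between 3.97 and 5.81, while wild-type stroma spans -0.99 to 6.38 and overlaps the tumor arrays.

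The same arrays stood at the ends of the range for most members. Knockout stroma 81 was the highest of its group for 27 members and knockout stroma 12 the lowest for 27. Among wild-type stroma arrays, number 9 was the highest for 34 and number 82 the lowest for 37. In tumor, knockout array 15 was the highest of its group for 31 members and array 59B the lowest for 29, and wild-type array 1 was the highest for 39. The exceptions were mostly slow-fibre genes, with knockout stroma 99 the highest for 9 members and wild-type stroma 5 for 6.

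**Figure D2:**
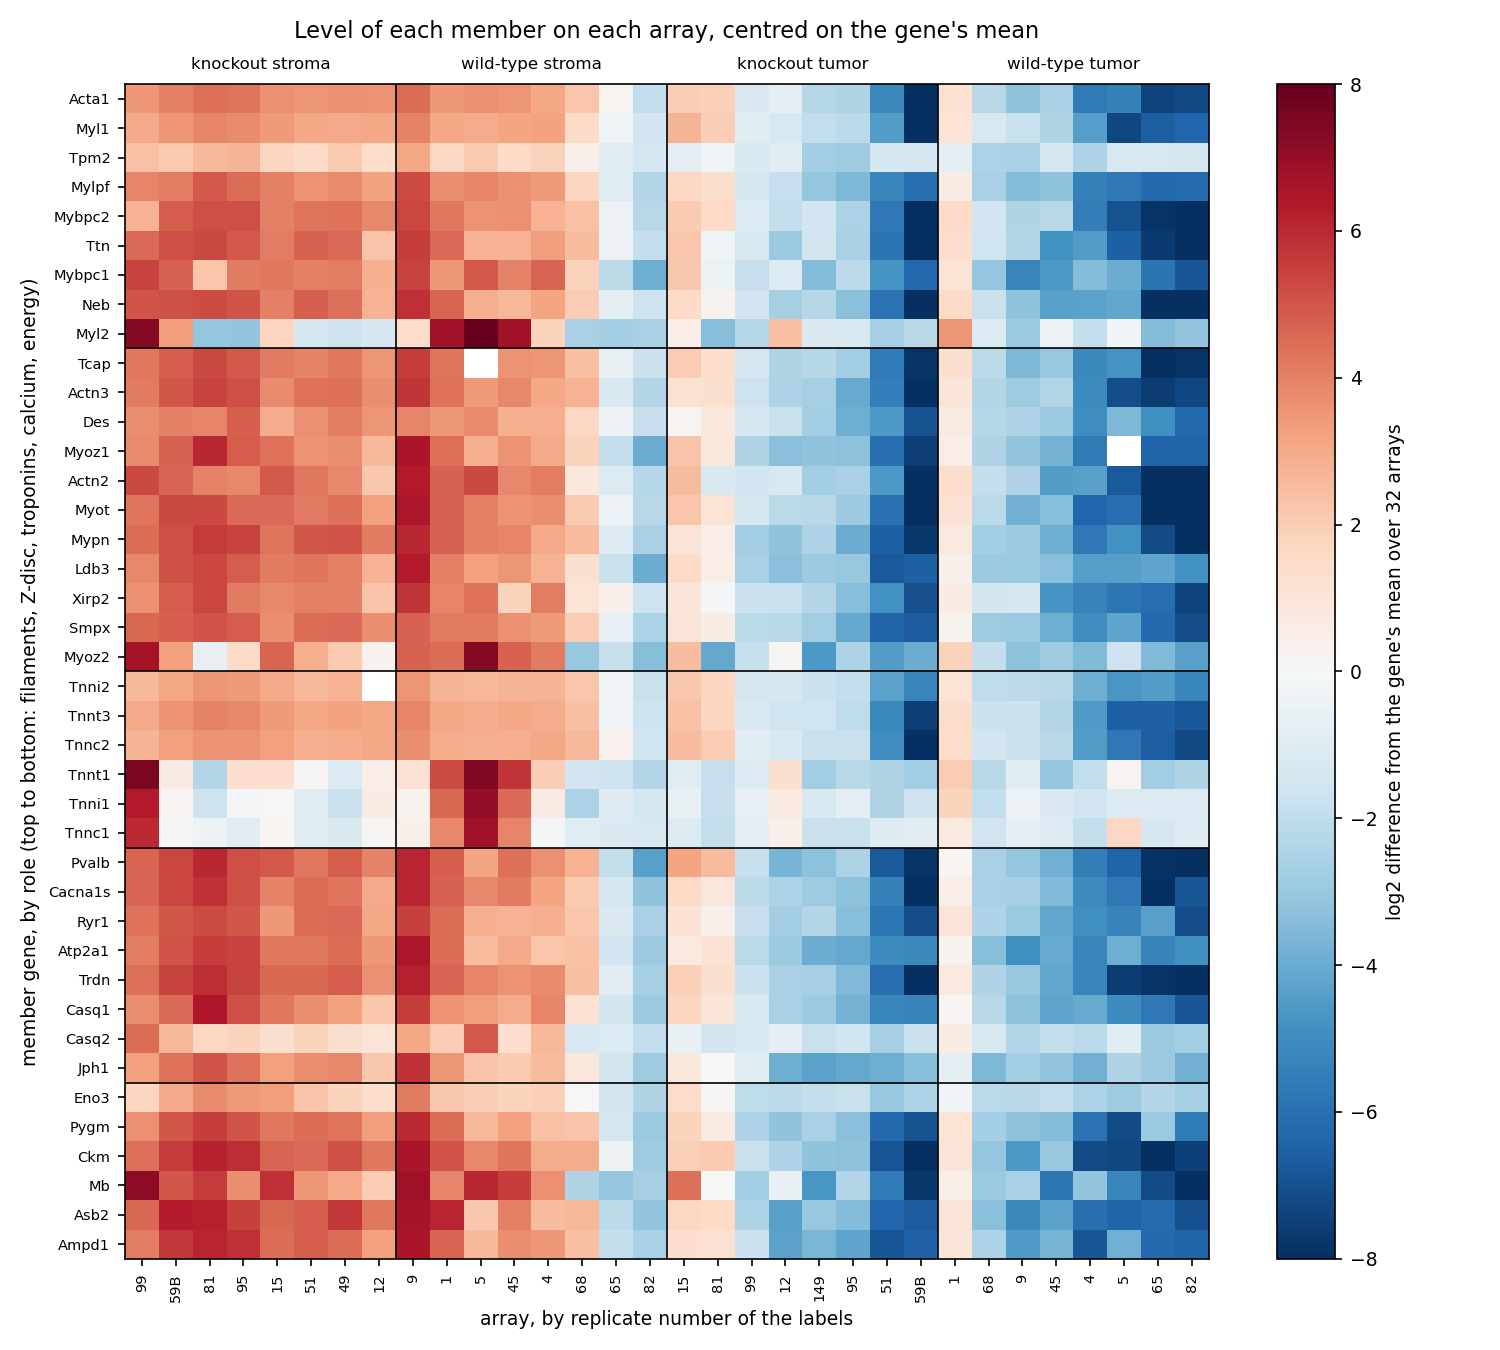
Level of each of the 40 members (down the page, by role) on each of the 32 arrays (across, by group), as log2 difference from the gene's mean over the 32 arrays. Values near that mean are drawn nearly white, and missing values are blank. Wild-type stroma 65 and 82 resemble the tumor arrays, and knockout tumor 15 and 81 and wild-type tumor 1 are the brightest tumor arrays.

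The first comparison set stroma against tumor within each genotype, to describe where muscle transcripts lay. In knockout hosts 36 of the 40 members were higher in stroma (limma, adjusted p under 0.05), where 27.4% of the 27120 genes tested were called higher and 32.3% lower. The median difference of the members was 6.67 log2 units, against -0.03 over all genes. Stroma and tumor arrays were without overlap for 32 members, against 13.1% of all genes in that direction. In wild-type hosts 37 of 40 were higher in stroma (11.8% of all genes higher, 19.8% lower), with a median of 6.15, against -0.22 over all genes. None of the 40 was without overlap there (0.111% of all genes). For all 40, wild-type stroma 65 and 82 lay below the highest wild-type tumor array, for 8 of them wild-type stroma 68 did too, and for Tnnt1, Tnni1, Tnnc1 and Myl2 so did arrays 4 and 9. Without wild-type stroma 65 and 82, 39 members were called, where 5035 of 27066 genes were called higher, and the median of the members was 7.65. Jph1 and Myoz2, called in both genotypes, were well above background on few tumor arrays, so the size of their differences is uncertain. The same holds in wild-type hosts for Asb2, well above background on 2 of 8 wild-type tumor arrays. Casq1, Mb, Xirp2 and Ampd1 were so on 4 of 8, and their wild-type differences also depend in part on the background level. The ± values below are standard errors of limma, with 8 arrays a group unless a spot was left out.

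Actin, titin and the myosin-associated proteins make up the filaments. The group had 9 members, 8 of them higher in stroma in each genotype, with medians of 6.16 in knockout hosts and 6.30 in wild-type hosts. Acta1, the actin of the thin filament, lay between 8.13 and 9.06 in knockout stroma (median 8.34) and between -4.04 and 6.64 in knockout tumor (median 2.97). Acta1 in wild-type hosts spanned 2.70 to 9.17 in stroma (median 7.96) and -2.74 to 5.90 in tumor (median 0.36). Acta1 was higher in stroma by 5.90 ± 1.03 in knockout hosts (adjusted p = 2.39e-05) and by 6.40 ± 1.03 in wild-type hosts (adjusted p = 0.000252). Acta1 did not overlap between the tissues of knockout hosts, and wild-type stroma 82 and 65 lay below wild-type tumor 1. For Ttn, the giant protein titin that spans from Z-disc to M-line, the lowest, median and highest levels were 4.84, 7.19 and 7.86 in knockout stroma against -5.38, 0.53 and 4.77 in knockout tumor. The same Ttn values were 0.65, 5.33 and 8.07 in wild-type stroma against -5.65, -2.11 and 3.89 in wild-type tumor. The Ttn difference, stroma minus tumor, was 6.97 ± 1.15 in knockout hosts (adjusted p = 1.22e-05) and 6.69 ± 1.15 in wild-type hosts (adjusted p = 0.000321). Ttn levels of stroma and tumor did not overlap in knockout hosts, and wild-type stroma 82 and 65 lay below wild-type tumor 1. Mylpf is the regulatory myosin light chain of fast fibres, and its median was 7.88 in knockout stroma (range 7.13 to 8.87), against 1.46 in knockout tumor (range -2.13 to 5.56). Wild-type stroma had a Mylpf median of 7.48 (range 1.59 to 9.12), against -0.50 in wild-type tumor (range -2.27 to 4.60). Mylpf was higher in stroma by 6.27 ± 0.96 in knockout hosts (adjusted p = 5.09e-06) and by 6.30 ± 0.96 in wild-type hosts (adjusted p = 0.000247). All 8 knockout stroma values of Mylpf lay above the tumor values, and wild-type stroma 82 and 65 lay below wild-type tumor 1. Knockout stroma held Myl2, the regulatory myosin light chain of slow fibres and heart, at -5.82 to 4.63 (median -4.06) and knockout tumor at -6.11 to -0.24 (median -4.39). Wild-type stroma held Myl2 at -5.46 to 6.65 (median -1.06) and wild-type tumor at -6.14 to 0.89 (median -4.17). The Myl2 difference between stroma and tumor was 1.47 ± 1.48 in knockout hosts (adjusted p = 0.405) and 3.47 ± 1.48 in wild-type hosts (adjusted p = 0.0711). Of the knockout stroma arrays 6 lay below tumor 12 for Myl2, as 5 wild-type stroma arrays lay below wild-type tumor 1. The other 5 filament members, nebulin (Neb), the tropomyosin Tpm2, the light chain Myl1 and the myosin-binding proteins Mybpc1 and Mybpc2, were higher in stroma by 3.49 (Tpm2) to 7.32 (Neb) in knockout hosts and by 2.76 (Tpm2) to 6.69 (Mybpc2) in wild-type hosts.

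All 11 members of the Z-disc, the plate that anchors actin filaments, and of the intermediate filament were higher in stroma in both genotypes, with medians of 6.96 in knockout hosts and 6.40 in wild-type hosts. Des, desmin, the intermediate filament that links Z-discs, lay between 5.82 and 7.63 in knockout stroma (median 6.62) and between -4.15 and 3.70 in knockout tumor (median 0.59). Des in wild-type hosts spanned 0.97 to 6.76 in stroma (median 5.68) and -3.41 to 3.54 in tumor (median -0.44). Des was higher in stroma by 6.37 ± 0.84 in knockout hosts (adjusted p = 1.11e-06) and by 5.36 ± 0.84 in wild-type hosts (adjusted p = 0.000247). Des did not overlap between the tissues of knockout hosts, and wild-type stroma 82 and 65 lay below wild-type tumor 1. For Xirp2, an actin-binding protein of the Z-disc region, the lowest, median and highest levels were 2.22, 3.98 and 5.26 in knockout stroma against -7.11, -2.14 and 0.93 in knockout tumor. The same Xirp2 values were -1.74, 2.79 and 5.63 in wild-type stroma against -7.45, -5.09 and 0.59 in wild-type tumor. The Xirp2 difference, stroma minus tumor, was 6.56 ± 1.07 in knockout hosts (adjusted p = 1.11e-05) and 6.40 ± 1.07 in wild-type hosts (adjusted p = 0.000279). Xirp2 levels of stroma and tumor did not overlap in knockout hosts, and wild-type stroma 82 and 65 lay below wild-type tumor 1. The other Z-disc members differed by 4.94 (Myoz2, a calcineurin-binding protein of slow fibres) to 8.04 (Mypn, a titin-binding protein) in knockout hosts. In wild-type hosts they differed by 4.55 (Myoz2) to 7.45 (myotilin, Myot), and the alpha-actinin Actn3 of fast fibres differed by 7.21 in knockout hosts and 6.67 in wild-type hosts. Myoz2 was well above background on only 3 of 8 knockout tumor arrays and 2 of 8 wild-type tumor arrays. The size of its differences therefore depends on the background level in tumor.

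The troponins, which make the thin filament responsive to calcium, split by fibre type. The 3 fast troponins passed in both genotypes, and the slow troponin Tnnt1 passed in wild-type hosts, though its 2 differences were not shown to differ (interaction -0.76 ± 1.64, adjusted p = 0.8). Tnnt3 is the fast-fibre form of the troponin subunit that binds tropomyosin, and its median was 9.04 in knockout stroma (range 8.75 to 9.71), against 4.13 in knockout tumor (range -1.78 to 8.09). Wild-type stroma had a Tnnt3 median of 8.68 (range 4.05 to 9.63), against 2.29 in wild-type tumor (range -1.06 to 7.15). Tnnt3 was higher in stroma by 5.28 ± 1.02 in knockout hosts (adjusted p = 7.68e-05) and by 5.66 ± 1.02 in wild-type hosts (adjusted p = 0.000446). Tnnt3 did not overlap between the tissues of knockout hosts, and wild-type stroma 82 and 65 lay below wild-type tumor 1. Knockout stroma held Tnni2, the fast-fibre form of the inhibitory troponin subunit, at 8.56 to 9.44 (median 8.97) and knockout tumor at 0.64 to 8.08 (median 4.37). Wild-type stroma held Tnni2 at 4.13 to 9.50 (median 8.63) and wild-type tumor at 0.69 to 7.05 (median 2.88). The Tnni2 difference, stroma minus tumor, was 4.51 ± 0.84 in knockout hosts (adjusted p = 5.64e-05) and 4.75 ± 0.81 in wild-type hosts (adjusted p = 0.000321). Tnni2 levels of stroma and tumor did not overlap in knockout hosts, and wild-type stroma 82 and 65 lay below wild-type tumor 1. Tnnt1, the slow-fibre form of the troponin that binds tropomyosin, lay between -2.23 and 7.62 in knockout stroma (median 0.68) and between -2.73 and 1.35 in knockout tumor (median -1.94). Tnnt1 in wild-type hosts spanned -2.29 to 7.48 in stroma (median 1.63) and -3.0 to 2.12 in tumor (median -2.02). The Tnnt1 difference between stroma and tumor was 2.62 ± 1.16 in knockout hosts (adjusted p = 0.0531) and 3.38 ± 1.16 in wild-type hosts (adjusted p = 0.0288). Of the knockout stroma arrays 5 lay below tumor 12 for Tnnt1, as 5 wild-type stroma arrays lay below wild-type tumor 1. For Tnni1, the slow-fibre inhibitory troponin, the lowest, median and highest levels were -3.41, -1.73 and 4.68 in knockout stroma against -4.09, -2.65 and -0.89 in knockout tumor. The same Tnni1 values were -4.18, -1.21 and 5.33 in wild-type stroma against -3.62, -2.76 and 0.12 in wild-type tumor. The Tnni1 difference between stroma and tumor was 1.40 ± 1.02 in knockout hosts (adjusted p = 0.241) and 2.33 ± 1.02 in wild-type hosts (adjusted p = 0.0778). Of the knockout stroma arrays 7 lay below tumor 12 for Tnni1, as 5 wild-type stroma arrays lay below wild-type tumor 1. Leaving out single arrays took the adjusted p of Tnnt1 in wild-type hosts to between 0.00383 and 0.0719, above the threshold without wild-type stroma 1, 4, 5, 9 or 45 or wild-type tumor 45 or 68. The calcium-binding Tnnc1, shared by slow fibres and heart, differed by 1.41 ± 0.84 in knockout hosts (adjusted p = 0.153) and by 2.07 ± 0.84 in wild-type hosts (adjusted p = 0.0615). Its fast counterpart Tnnc2 was higher in stroma by 4.97 ± 1.01 in knockout hosts (adjusted p = 0.00015) and by 5.61 ± 1.01 in wild-type hosts (adjusted p = 0.000469).

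All 8 genes of calcium handling were higher in stroma in both genotypes, with medians of 7.16 in knockout hosts and 5.97 in wild-type hosts. For Cacna1s, the voltage sensor of the T-tubule, the lowest, median and highest levels were 5.63, 7.17 and 8.46 in knockout stroma against -5.60, -0.06 and 4.23 in knockout tumor. The same Cacna1s values were -0.60, 6.14 and 8.73 in wild-type stroma against -5.73, -1.68 and 3.17 in wild-type tumor. Cacna1s was higher in stroma by 7.31 ± 1.14 in knockout hosts (adjusted p = 6.36e-06) and by 6.72 ± 1.14 in wild-type hosts (adjusted p = 0.000303). Cacna1s did not overlap between the tissues of knockout hosts, and wild-type stroma 82 and 65 lay below wild-type tumor 1. Ryr1 is the calcium release channel of the sarcoplasmic reticulum, and its median was 6.30 in knockout stroma (range 4.90 to 7.04), against -0.76 in knockout tumor (range -5.28 to 2.96). Wild-type stroma had a Ryr1 median of 4.62 (range -0.76 to 7.26), against -2.43 in wild-type tumor (range -5.30 to 2.82). The Ryr1 difference, stroma minus tumor, was 7.09 ± 1.01 in knockout hosts (adjusted p = 2.33e-06) and 5.89 ± 1.01 in wild-type hosts (adjusted p = 0.000321). Ryr1 levels of stroma and tumor did not overlap in knockout hosts, and wild-type stroma 82 and 65 lay below wild-type tumor 1. Knockout stroma held Casq1, the calcium-binding protein of the fast-fibre reticulum, at 1.69 to 5.91 (median 3.43) and knockout tumor at -5.91 to 1.14 (median -3.28). Wild-type stroma held Casq1 at -3.44 to 4.98 (median 2.63) and wild-type tumor at -7.37 to -0.37 (median -4.69). Casq1 was higher in stroma by 6.47 ± 1.01 in knockout hosts (adjusted p = 6.72e-06) and by 5.93 ± 1.01 in wild-type hosts (adjusted p = 0.000318). All 8 knockout stroma values of Casq1 lay above the tumor values, and wild-type stroma 82 and 65 lay below wild-type tumor 1. Casq2, the calsequestrin of heart and slow fibres, lay between -1.38 and 1.97 in knockout stroma (median -0.76) and between -5.12 and -3.08 in knockout tumor (median -3.99). Casq2 in wild-type hosts spanned -4.45 to 2.44 in stroma (median -0.77) and -5.43 to -1.87 in tumor (median -4.52). The Casq2 difference, stroma minus tumor, was 3.48 ± 0.71 in knockout hosts (adjusted p = 0.000153) and 2.94 ± 0.71 in wild-type hosts (adjusted p = 0.00415). Casq2 did not overlap between the tissues of knockout hosts, and wild-type stroma 82, 68 and 65 lay below wild-type tumor 1. For Atp2a1, the calcium pump of fast fibres, the lowest, median and highest levels were 4.88, 5.77 and 6.98 in knockout stroma against -3.75, -2.04 and 2.56 in knockout tumor. The same Atp2a1 values were -1.51, 3.85 and 7.87 in wild-type stroma against -3.93, -3.05 and 1.69 in wild-type tumor. Atp2a1 was higher in stroma by 7.24 ± 0.94 in knockout hosts (adjusted p = 9.45e-07) and by 6.01 ± 0.94 in wild-type hosts (adjusted p = 0.000247). Atp2a1 levels of stroma and tumor did not overlap in knockout hosts, and wild-type stroma 82 and 65 lay below wild-type tumor 1. Pvalb is the cytosolic calcium buffer of fast fibres, and its median was 7.96 in knockout stroma (range 7.05 to 9.14), against 0.17 in knockout tumor (range -4.78 to 6.23). Wild-type stroma had a Pvalb median of 6.49 (range -1.28 to 9.20), against -1.61 in wild-type tumor (range -5.04 to 3.22). The Pvalb difference, stroma minus tumor, was 7.43 ± 1.21 in knockout hosts (adjusted p = 1.03e-05) and 7.00 ± 1.21 in wild-type hosts (adjusted p = 0.000323). All 8 knockout stroma values of Pvalb lay above the tumor values, and wild-type stroma 82 and 65 lay below wild-type tumor 1. Triadin (Trdn), which anchors calsequestrin to the release channel, was higher in stroma by 7.58 in knockout hosts and 7.40 in wild-type hosts. Junctophilin (Jph1), which holds the T-tubule to the reticulum, was higher by 6.20 in knockout hosts and 4.50 in wild-type hosts. Jph1 was well above background on only 3 of 8 knockout tumor arrays and 1 of 8 wild-type tumor arrays. The size of its differences therefore depends on the background level in tumor.

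The 6 genes of energy supply and turnover had the largest median of the 5 roles in both genotypes, 7.58 in knockout hosts and 6.51 in wild-type hosts, and all 6 were higher in stroma. Knockout stroma held Ckm, the muscle creatine kinase, at 6.29 to 8.19 (median 6.92) and knockout tumor at -7.17 to 4.14 (median -0.78). Wild-type stroma held Ckm at -0.77 to 8.58 (median 5.46) and wild-type tumor at -6.69 to 3.1 (median -3.83). Ckm was higher in stroma by 7.93 ± 1.19 in knockout hosts (adjusted p = 4.1e-06) and by 7.84 ± 1.19 in wild-type hosts (adjusted p = 0.000247). Ckm did not overlap between the tissues of knockout hosts, and wild-type stroma 82 and 65 lay below wild-type tumor 1. Eno3, the muscle enolase of glycolysis, lay between 6.16 and 8.48 in knockout stroma (median 7.39) and between 1.68 and 6.18 in knockout tumor (median 2.73). Eno3 in wild-type hosts spanned 2.34 to 8.86 in stroma (median 6.56) and 1.85 to 4.47 in tumor (median 2.44). The Eno3 difference, stroma minus tumor, was 4.08 ± 0.67 in knockout hosts (adjusted p = 1.15e-05) and 3.13 ± 0.67 in wild-type hosts (adjusted p = 0.00167). Only knockout stroma array number 12 lay below knockout tumor 15 for Eno3, and wild-type stroma 82 and 65 lay below wild-type tumor 1. For Mb, the oxygen-binding protein myoglobin, the lowest, median and highest levels were 2.54, 4.84 and 7.65 in knockout stroma against -7.24, -2.06 and 4.91 in knockout tumor. The same Mb values were -2.63, 4.28 and 7.24 in wild-type stroma against -7.61, -3.69 and 0.96 in wild-type tumor. Mb was higher in stroma by 6.90 ± 1.48 in knockout hosts (adjusted p = 0.000255) and by 6.53 ± 1.48 in wild-type hosts (adjusted p = 0.00263). Knockout stroma arrays number 12, 49, 51 and 95 lay below knockout tumor 15 for Mb, and wild-type stroma 65, 82 and 68 lay below wild-type tumor 1. Asb2 is the substrate receptor of a ubiquitin ligase that is abundant in muscle, and its median was 4.75 in knockout stroma (range 3.86 to 5.88), against -3.65 in knockout tumor (range -7.05 to 1.30). Wild-type stroma had an Asb2 median of 2.17 (range -3.56 to 6.21), against -5.97 in wild-type tumor (range -7.45 to 0.64). The Asb2 difference, stroma minus tumor, was 8.10 ± 1.13 in knockout hosts (adjusted p = 1.85e-06) and 7.01 ± 1.13 in wild-type hosts (adjusted p = 0.000252). Asb2 did not overlap between the tissues of knockout hosts, and wild-type stroma 82 and 65 lay below wild-type tumor 1. The muscle phosphorylase Pygm, which releases glucose from glycogen, differed by 7.24 in knockout hosts and 5.82 in wild-type hosts. The muscle adenylate deaminase Ampd1 differed by 7.92 in knockout hosts and 6.49 in wild-type hosts. In wild-type tumor, Asb2 was well above background on only 2 of 8 arrays, and Mb and Ampd1 on 4 of 8. The size of their wild-type differences, and the wild-type median of this role, therefore depend in part on the background level in tumor.

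**Figure D3:**
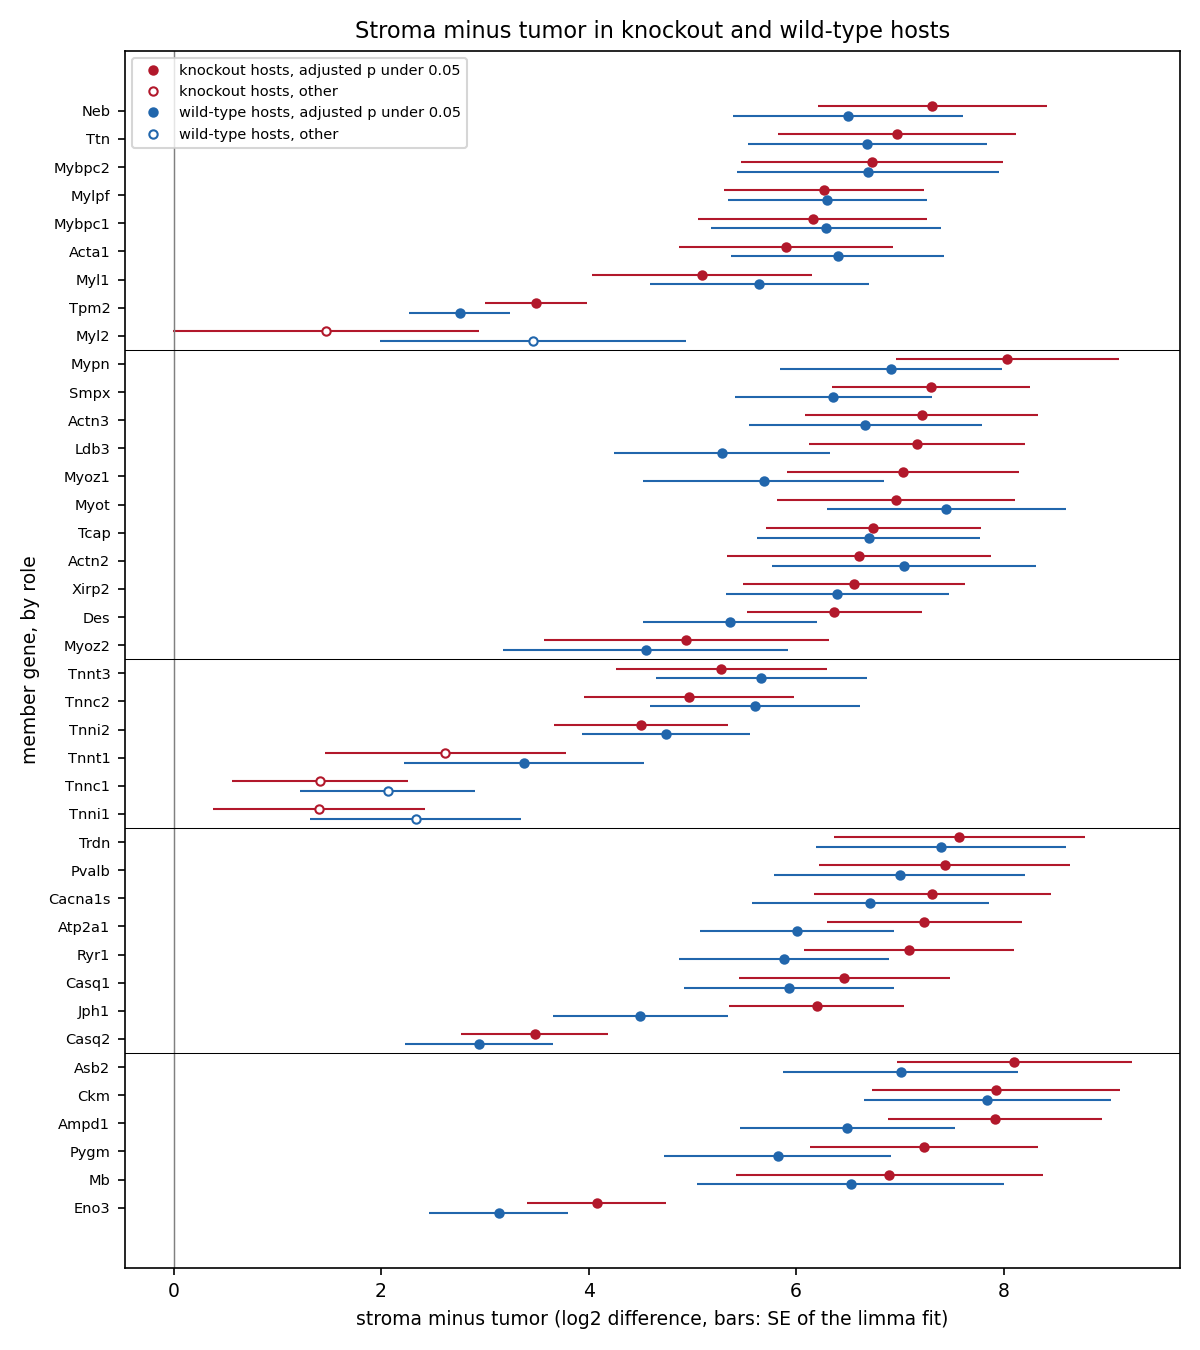
Difference between stroma and tumor for each of the 40 members (log2 units, limma estimate with SE), in knockout hosts and in wild-type hosts. Values run from 1.40 (Tnni1) to 8.10 (Asb2) in knockout hosts and from 2.07 (Tnnc1) to 7.84 (Ckm) in wild-type hosts. The slow-fibre genes Tnni1, Tnnc1, Myl2 and Tnnt1 are the lowest in knockout hosts. In wild-type hosts Tpm2 (2.76), Casq2 (2.94) and Eno3 (3.13) lie below Tnnt1 (3.38) and Myl2 (3.47).

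By fibre type, 11 of 11 fast members were higher in stroma in knockout hosts (median 6.47) and in wild-type hosts (median 5.93). Of the 7 slow members, 3 were higher in stroma in knockout hosts (median 2.62) and 4 in wild-type hosts (median 3.38). The 3 were Mybpc1, Myoz2 and Casq2, and Tnnt1 was the additional one in wild-type hosts. On single slides that held both tissues, the median difference of the members was 3.07 to 7.33 in knockout hosts and 2.18 to 10.3 in wild-type hosts, with each arm at 1 to 3 arrays.

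The second comparison asked whether the hosts' EP2 genotype went with the muscle transcripts of the stroma. None of the 40 members passed between knockout and wild-type stroma (limma, 0 higher and 0 lower, where 0% of 24782 genes were called higher and 0% lower). At an unadjusted p under 0.05, 18 members were higher, where 12.5% of all genes were higher and 15.9% lower. Differences were positive for 36 members and negative for 4, with a median of 1.86, against 0.09 over all genes. The adjusted p lay between 0.133 (Des) and 0.859 (Myoz2). Without wild-type stroma 65 and 82 the median was 0.36, against 0.04 over all genes, 32 differences were positive and 8 negative, and no member had an unadjusted p under 0.05.

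This comparison turned on single arrays. Without wild-type stroma 9, the array with most muscle signal and one of those against its label of sex, 31 of 40 members were called higher. Of 24551 genes tested there, 3905 were called higher and 8414 in all, and the median of the members was 2.52. Without wild-type stroma 4, 2 of 40 members were called higher, where 2086 of 24397 genes were called higher and 4961 in all. Without all the arrays against their label of sex, 26 of 40 members were called higher (median 2.60). Of 24024 genes tested there, 2357 were called higher and 5707 in all. With array quality weights, 34 of 40 members were called higher and 3 lower, where 9712 of 24782 genes were called higher and 17743 in all. On the 5 slides that held both genotypes of stroma the median of the members was 5.04 (knockout 51 against wild-type 65), 0.15 (knockout 49 and 99 against wild-type 5), -2.37 (knockout 12 against wild-type 9), 0.44 (knockout 15, 59B and 81 against wild-type 1) and 4.19 (knockout 95 against wild-type 45 and 82). The sign thus differed between slides, and the 2 largest values were those with wild-type stroma 65 or 82.

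Of the markers of other cells, none passed the threshold between the stroma groups. Of the 8 adipocyte markers none passed, their differences were positive for 8 with a median of 1.66 (0.57 without wild-type stroma 65 and 82), and their mean level spanned 1.14 to 4.15 in knockout stroma, against -2.20 to 3.43 in wild-type stroma. The 8 markers of proliferating cells, which were lower in stroma than in tumor for 8 of 8 in knockout hosts, had negative differences for 8 with a median of -1.47 (-0.12 without the 2 arrays). Their mean spanned -1.76 to 1.94 in knockout stroma, against -4.94 to 3.31 in wild-type stroma, highest in array 82. Markers of Schwann cells and nerve had a median of 1.10 (0.13 without the 2 arrays), with 0 of 8 passing. Medians that were as large without the 2 arrays were those of macrophage markers, 0.98 with all arrays and 0.99 without the 2 (8 of 8 positive in each), of fibroblast markers, 0.76 and 0.87, and of T cell markers, 0.58 and 0.67. The part of these cells in the muscle differences was not tested.

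Among filament genes, knockout minus wild-type stroma was 1.49 ± 0.70 (adjusted p = 0.175) for Acta1, with all 8 knockout arrays above the wild-type median, and 0.32 ± 0.30 without wild-type stroma 65 and 82. Titin (Ttn) differed by 2.06 ± 0.87 (adjusted p = 0.15), and by 0.65 ± 0.52 without the 2 arrays. For Mylpf the difference was 1.71 ± 0.86 (adjusted p = 0.196), and 0.22 ± 0.40 without them. The slow light chain Myl2 had the lowest value, -2.03 ± 1.82 (adjusted p = 0.444), and -3.11 ± 2.06 without them. In none of the 40 members were the knockout and wild-type arrays of stroma without overlap (0.0202% of all genes higher, 0.121% lower). The fast and general filament genes had positive values while Myl2 had a negative one. At the Z-disc, Des differed by 1.81 ± 0.69 (adjusted p = 0.133), and by 0.67 ± 0.37 without the 2 arrays, and Xirp2 by 1.55 ± 0.90 (adjusted p = 0.249), and by 0.17 ± 0.60 without them. Desmin had the smallest adjusted p of the 40 members.

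Fast troponins differed by 1.34 ± 0.62 (adjusted p = 0.172) for Tnnt3 and 1.19 ± 0.64 (adjusted p = 0.221) for Tnni2, and by 0.25 ± 0.23 and 0.14 ± 0.22 without wild-type stroma 65 and 82. Slow troponins had the opposite sign, with -0.97 ± 1.39 (adjusted p = 0.635) for Tnnt1 and -1.17 ± 1.28 (adjusted p = 0.533) for Tnni1, and -1.86 ± 1.56 and -1.58 ± 1.5 without the 2 arrays. Of the 8 knockout stroma arrays, 1 was above the wild-type median for Tnnt1 and 2 were for Tnni1. Among calcium genes, the voltage sensor Cacna1s differed by 2.14 ± 1.04 (adjusted p = 0.187), and by 0.41 ± 0.57 without the 2 arrays. The release channel Ryr1 differed by 2.27 ± 0.91 (adjusted p = 0.141), and by 0.75 ± 0.51 without them. The differences of both channels were thus below 1 log2 unit once those arrays were out.

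Calsequestrin 1 (Casq1) differed by 2.14 ± 1.02 (adjusted p = 0.182), and by 0.42 ± 0.56 without the 2 arrays, while Casq2 differed by 0.79 ± 0.91 (adjusted p = 0.551) and turned to -0.31 ± 0.83. The calcium pump Atp2a1 differed by 2.49 ± 1.01 (adjusted p = 0.143), and by 0.85 ± 0.61 without the 2 arrays, and parvalbumin (Pvalb) by 2.57 ± 1.14 (adjusted p = 0.162), and by 0.56 ± 0.46. Creatine kinase (Ckm) differed by 2.27 ± 0.98 (adjusted p = 0.156), and by 0.68 ± 0.55 without them. Enolase (Eno3) differed by 1.57 ± 0.77 (adjusted p = 0.19), and by 0.34 ± 0.50 without them. Myoglobin (Mb) differed by 2.28 ± 1.48 (adjusted p = 0.295), and by 0.25 ± 1.22 without them. Asb2 had the highest value of the 40, 2.89 ± 1.13 (adjusted p = 0.138), and 1.09 ± 0.75 without them. The energy genes therefore all had positive values with and without the 2 arrays, none past the threshold.

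**Figure D4:**
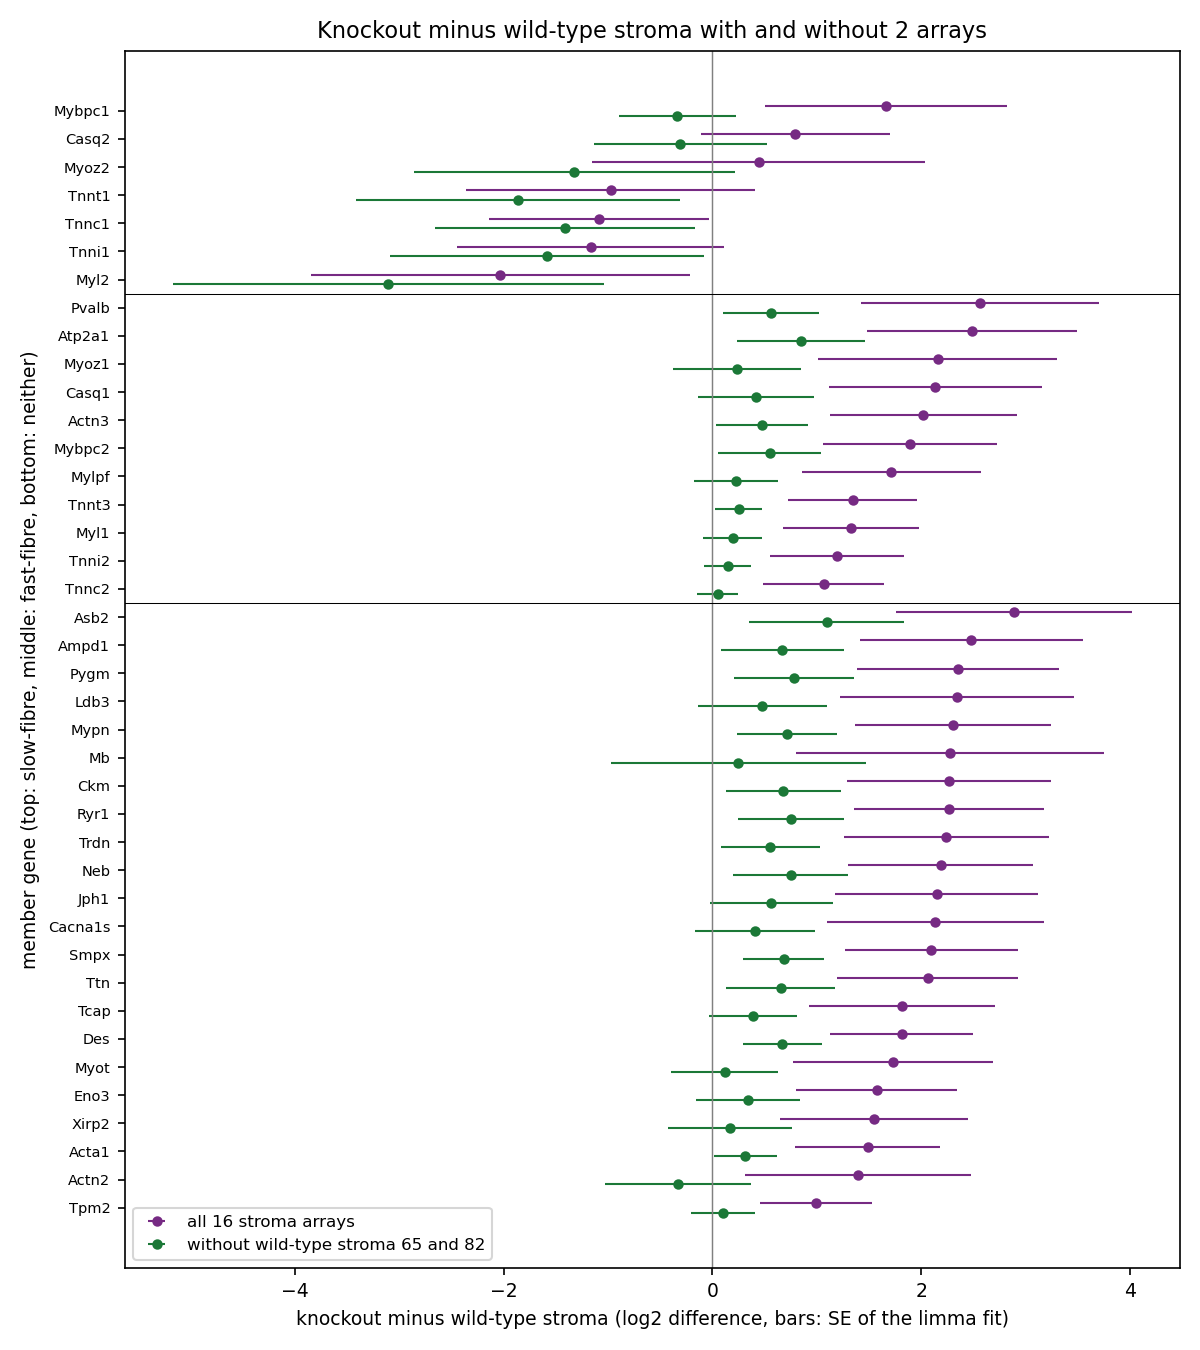
Difference between knockout and wild-type stroma for each of the 40 members (log2 units, limma estimate with SE), with all 16 stroma arrays and without wild-type stroma 65 and 82. The median of the members is 1.86 with all arrays and 0.36 without the 2. The slow-fibre genes other than Mybpc1 (1.66 with all arrays) lie at the low end, with Myl2 at -2.03 and -3.11.

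Slow-fibre genes varied between stroma arrays in a way of their own. Knockout minus wild-type stroma had a median of -0.97 over the 7 slow members (3 positive, 4 negative), 1.89 over the 11 fast members (11 positive) and 2.14 over the 22 others (22 positive). Without wild-type stroma 65 and 82 the medians were -1.41 for slow members (7 negative), 0.25 for fast members (11 positive) and 0.56 for the others (21 positive). None of the slow members had an unadjusted p under 0.05 in either fit.

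Single arrays carried the slow genes. Tnnt1 was 7.62 in knockout stroma 99, and 1.43 or lower in the other 7 knockout stroma arrays. In wild-type stroma Tnnt1 was 7.48 in array 5, 5.83 in array 45 and 5.28 in array 1, and 2.05 or lower in the other 5. Knockout stroma 99 and wild-type stroma 1, 5 and 45 were also the highest of their groups for Tnni1, Tnnc1 and Myl2. Knockout stroma 99 had 4.68 for Tnni1, 2.45 for Tnnc1 and 4.63 for Myl2, and wild-type stroma 5 had 5.33, 3.17 and 6.65 for the same genes. Wild-type stroma 1 and 45 lay between those 2 arrays and the rest, with 4.02 and 4.05 for Myl2. These arrays lay on slides 3 (knockout stroma 99, wild-type stroma 5), 5 (wild-type stroma 1) and 6 (wild-type stroma 45), and knockout stroma 99 was among the arrays against their label of sex.

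The mean of the slow members minus the mean of the fast members, each gene centred on its mean over the 16 stroma arrays, was 4.13 in knockout stroma 99 and between -4.18 and -0.57 in the other knockout stroma arrays. It was 5.07, 2.45 and 1.96 in wild-type stroma 5, 45 and 1. The centred mean of the fast members was 0.44 in knockout stroma 99 and 0.06 in wild-type stroma 5, with the highest value, 2.05, in wild-type stroma 9. Knockout stroma 99 was the lowest of its group for 6 members, Acta1 and the fast forms Tnnt3, Tnni2, Tnnc2, Myl1 and Mybpc2. Over the 14 stroma arrays other than wild-type stroma 65 and 82, Tnnt1 correlated at r = 0.98 with Tnni1, 0.95 with Tnnc1, 0.92 with Myl2 and 0.82 with Myoz2, and at -0.24 with Ckm. Ckm correlated at r = 0.98 with Actn3, 0.97 with Atp2a1 and 0.97 with Pygm. Mybpc1, listed with the slow genes, correlated at 0.56 with Tnnt1, and Casq2 at 0.68. These correlations describe arrays that share groups and slides.

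**Figure D5:**
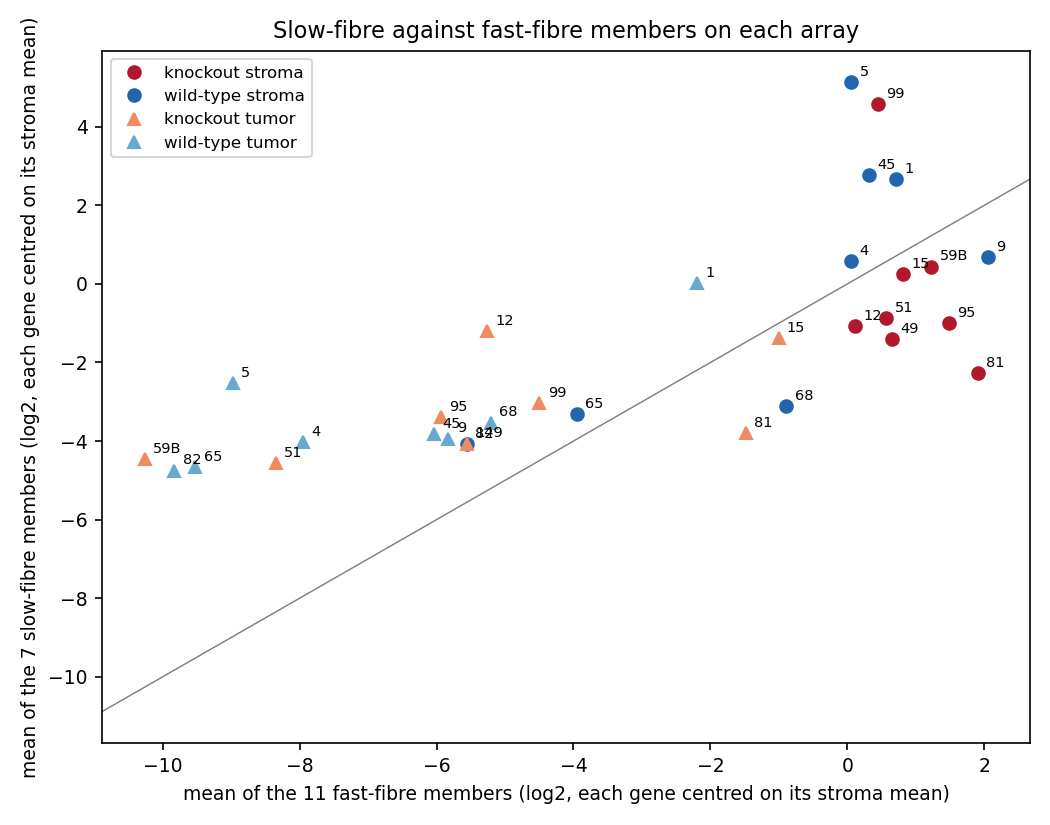
Mean of the 7 slow members against mean of the 11 fast members on each of the 32 arrays, each gene centred on its stroma mean (log2 units). Knockout stroma 99 and wild-type stroma 5 stand out in the slow direction at 4.58 and 5.13, with fast means of 0.44 and 0.06.

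Myosin heavy chains, the motors of the thick filament, are not among the 40. Their slow form was high on the same arrays, and several other chains were high on some of them. Myh7, the heavy chain of slow fibres, was chosen for description after its values were seen. It was 6.87 in knockout stroma 99 and 0.19 or lower in the other knockout stroma arrays, and in wild-type stroma it was 6.35 in array 5, 5.49 in array 1 and 4.20 in array 45, and -1.85 or lower in the rest. Of the 8 heavy chains in the list read here, 7 were higher in stroma in knockout hosts and 5 in wild-type hosts. Myh1, a chain of fast fibres, was higher by 6.68 ± 1.43 in knockout hosts (adjusted p = 0.000244) and by 6.99 ± 1.43 in wild-type hosts (adjusted p = 0.00118). Myh4, the chain of the fastest fibres, lay between 7.62 and 8.71 in knockout stroma, against 3.90 to 8.95 in wild-type stroma. Myh4 and Myh8 were lowest of their group in knockout stroma 99 and highest of their group in wild-type stroma 9. Myh1 (7.56), Myh2 (7.51), Myh3 (2.02), Myh7b (2.22) and Myh13 (3.27) were highest of their group in knockout stroma 99. In wild-type stroma, array 5 was highest for Myh2 (7.60), Myh3 (2.02), Myh7b (1.47) and Myh13 (2.44), and array 9 for Myh1 (8.14). These chains too were read after their values were seen. Myh4 and Myh8 have close sequences and moved together, and whether their probes share signal was not tested.

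Between knockout and wild-type tumor none of the 38 members tested passed (limma, 0% of 23749 genes called higher and 0% lower). None had an unadjusted p under 0.05, where 1.15% of all genes were higher and 2.38% lower. Jph1 and Myoz2 were well above background on too few tumor arrays to be tested. Differences were positive for 34 and negative for 4, with a median of 1.45, against -0.03 over all genes, and the range was -0.43 (Tnnc1) to 2.21 (Myot). The adjusted p was 0.98 to 0.999, and no member was without overlap (0% of all genes higher, 0.00421% lower).

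Filament and Z-disc genes differed between knockout and wild-type tumor by 1.99 ± 1.22 for Acta1, 1.78 ± 1.31 for Ttn, 1.75 ± 0.99 for Mylpf, -0.04 ± 0.83 for Myl2, 0.81 ± 0.92 for Des and 1.39 ± 1.15 for Xirp2. The troponins differed by 1.73 ± 1.24 for Tnnt3, 1.43 ± 0.90 for Tnni2, -0.21 ± 0.74 for Tnnt1 and -0.24 ± 0.52 for Tnni1. Calcium genes differed by 1.54 ± 1.16 for Cacna1s, 1.06 ± 1.04 for Ryr1, 1.60 ± 0.93 for Casq1, 0.25 ± 0.34 for Casq2, 1.26 ± 0.78 for Atp2a1 and 2.14 ± 1.18 for Pvalb. Those of energy and turnover differed by 2.18 ± 1.30 for Ckm, 0.63 ± 0.48 for Eno3, 1.90 ± 1.37 for Mb and 1.79 ± 1.04 for Asb2. The sign was positive for the fast and general genes and negative for Myl2, Tnnt1 and Tnni1. The median was 1.70 over the 11 fast members and -0.13 over the 6 slow members tested. On the 3 slides with both genotypes of tumor it was 4.40, 0.48 and 2.44 over all members.

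Muscle signal in tumor was high on few arrays. In knockout tumor 15, Ckm was 3.98, Acta1 6.64 and Tnnt3 8.09, and in wild-type tumor 1 these were 3.1, 5.90 and 7.15. Knockout tumor 12 held the highest Tnnt1 of its group (1.35) and the highest slow mean, while its fast mean was below that of arrays 15 and 81. Markers of adipocytes were highest in knockout tumor 81 (mean 0.41) and in wild-type tumor 9 (-0.25). The first of these was among the tumor arrays with most muscle signal, and wild-type tumor 9 was not. Markers of proliferating cells averaged 3.06 in knockout tumor 15 and 3.33 in wild-type tumor 1, within the range of the other tumor arrays or, for array 1, at its wild-type maximum.

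The difference between genotypes in stroma was also set against that in tumor, as the interaction of genotype and tissue. None of the 40 members passed (limma, 0% of 27120 genes called higher and 0% lower), and none had an unadjusted p under 0.05, where 9.52% of all genes were higher and 11.4% lower. The median was 0.38, against 0.14 over all genes, with 27 positive and 13 negative, from -2.00 ± 2.09 for Myl2 (adjusted p = 0.576) to 1.88 ± 1.47 for Ldb3 (adjusted p = 0.448), a Z-disc protein. It fell to -0.31 without wild-type stroma 82 and was 0.99 without wild-type stroma 9. With array weights 18 of the 40 members were called higher, where 7367 of 27120 genes were called higher and 14236 were called in all.

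Muscle genes outside the 40 moved the same way between the tissues. Of 28 other sarcomere genes, 26 were higher and 1 lower in stroma in each genotype, with medians of 5.63 in knockout hosts and 5.06 in wild-type hosts. Trim63, a ubiquitin ligase that acts on proteins of the sarcomere, was higher by 7.38 ± 1.19 in knockout hosts (adjusted p = 8.96e-06) and by 6.86 ± 1.19 in wild-type hosts (adjusted p = 0.000331). Of 15 other genes of calcium handling and excitation, 15 were higher in knockout hosts and 14 in wild-type hosts, with medians of 5.72 and 4.19, and the receptor kinase Musk of the nerve-muscle junction was higher by 6.93 ± 0.76 in knockout hosts (adjusted p = 3.76e-07). Of 12 other energy genes, 12 were higher in knockout hosts and 11 in wild-type hosts, with medians of 6.44 and 4.80. Myogenic regulators, the transcription factors of muscle, were higher for 9 of 9 tested in knockout hosts and 7 of 9 in wild-type hosts, led by Myf6 at 7.26 ± 1.17 in knockout hosts (adjusted p = 9.44e-06). Between knockout and wild-type stroma none of these genes passed, with medians of 1.76, 1.98, 1.92 and 1.12 over the sarcomere, calcium, energy and regulator lists. Without wild-type stroma 65 and 82 those medians were 0.47, 0.68, 0.48 and 0.54.

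Other cell types were read in the same way. Of 7 cardiac markers tested, 4 were higher and 1 lower in stroma in knockout hosts, and 3 higher and 1 lower in wild-type hosts. Cardiac Actc1, the actin of heart that is also made in regenerating muscle, was higher by 4.02 ± 0.65 in knockout hosts (adjusted p = 1.07e-05), while the atrial light chain Myl7 was well above background on 1 of the 32 arrays. Smooth muscle and pericyte markers were higher for 5 of 7 in each genotype and lower for 1, with Myh11 higher by 4.46 ± 0.68 in knockout hosts (adjusted p = 4.94e-06). Adipocyte markers were higher for 8 of 8 in knockout hosts and 7 of 8 in wild-type hosts, with medians of 5.43 and 3.63. Schwann cell and nerve markers were higher for 7 of 8 in each, with medians of 3.12 and 1.96. Endothelial markers were higher for 8 of 8 in knockout hosts and 7 of 8 in wild-type hosts (medians 1.66 and 1.16), macrophage markers for 7 and 5 of 8 (1.76 and 1.46), and fibroblast markers for 6 and 3 of 8, with 1 lower in each (1.83 and 0.82). Of the T cell markers 1 of 8 was higher in knockout hosts and 0 of 8 in wild-type hosts, of the 2 keratinocyte markers tested 1 and 0, and of the proliferating cell markers 8 of 8 were lower in knockout hosts and 1 of 8 in wild-type hosts. The part of any of these cells in the muscle values was not tested.

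Genes outside the list were also ordered by how closely their levels followed the mean of the members, 40 of them in stroma and 38 in tumor. Over the 16 stroma arrays the closest were Cox6a2 (r = 0.99), Tpd52l1 (0.99), Smtnl1 (0.99), and Myl3, Alpk3, Itgb1bp2, Fxyd1, Fabp3, Cox8b and Tceal5 (0.98 each). Over the 16 tumor arrays they included Cap2 (r = 0.99), Nrap, Apobec2, Pde4dip, Trim54 and Trim63 (0.99 each), and Myom1, Art1 and Pgam2 (0.98 each). None of the genes named for stroma is among those named for tumor, and the arrays share groups and slides.

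Several members had more than 1 probe. Of these other probes, all but 3 correlated at r of 0.94 or more with the kept probe over the 32 arrays. The other Mylpf probe correlated at 0.50 and differed between stroma and tumor by 1.73 in knockout hosts and 1.05 in wild-type hosts. The other Casq2 probe was well above background on 0 arrays and 1 of the Smpx probes on 3 arrays.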

How the data were processed

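The arrays were one-colour Agilent mouse arrays of Cy3-labelled total RNA, prepared, per the labels' protocols, with a kit for fibrous tissue. The submitters' processing notes name Agilent Feature Extraction, version 10.7.3.1, as the authors' software. Per the file headers, the deposited array files hold this processed signal as a linear intensity. The authors' deposited series matrix holds log2 values. They matched the values computed here within 0.01, once each probe was centred on its median within a tissue, for 99.5% of values in stroma and 98.7% in tumor. Its column medians ran from -0.312 to 0.558, and its values entered only the comparisons within a tissue, as an alternative.

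Here intensities were divided by the 75th percentile of their array (584 to 1727 in signal units) and taken to log2. Outlier spots (58 to 483 per array) were left out, which left Tnni2 in knockout stroma 12, Tcap in wild-type stroma 5 and Myoz1 in wild-type tumor 5 without a value. Probes were named through RefSeq accessions (GRCm38.p6), with 32994 of 56605 matched, and each gene was read by its brightest probe, averaged over the 32 arrays. A gene was tested where at least 8 arrays of the fit were well above background and at most 2 values were missing. Differences came from limma 3.58.1 in R 4.3.3, where blocks used the statmod package (1.5.0) and input the data.table package (1.17.8), with 1 mean per tissue, genotype and sex label, on 16 arrays within a tissue and on all 32 for stroma against tumor and for the interaction. Benjamini-Hochberg adjustment ran over all genes tested, with a threshold of 0.05, and the script was tested on simulated data. Promoter searches used pandas 2.3.3 and numpy 2.4.6 and figures used matplotlib 3.10.9, all in Python 3.11.15.

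The members, the marker lists, the fibre groups and the alternatives were chosen with earlier results of these data known. Of the 40 members 20 are given in full, the others by counts and ranges. From each other list up to 3 tested genes with the largest difference could be named, and up to 10 genes most like the member mean in each tissue are named. A few genes so chosen are not reported here. Alternatives were other scalings (quantile, bright probes, and normexp with offset 50 on the median spot signal, since no mean signal is in the deposited files), other filters, the mean of all probes, slide as a block, array weights, all arrays in 1 fit, the series matrix, the host number as a block, and leaving out each array, wild-type stroma 65 and 82, or the arrays against their label of sex.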

Additional observations from a re-analysis of the deposited data

Results flagged for a closer look

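In 11 of the 88 groups of 8 arrays examined (the 20 members given in full, the member mean and the slow minus fast index, in 4 groups each) 1 array lay far from the others of its group. Chance gives such a gap in about 1 in 20 groups, and values that move together on 1 array are not separate cases. Knockout stroma 99 stood above its group for Tnnt1, at 7.62 with the next array at 1.43, for Tnni1, at 4.68 with the next at -1.09, and for Casq2, at 1.97 with the next at 0.15. Its slow minus fast index was 4.13, with the next at -0.57. Knockout stroma 12 stood below its group for Ttn, at 4.84 with the next at 6.65. In tumor, knockout tumor 12 stood above its group for Tnnt1, at 1.35 with the next at -0.87.

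Wild-type tumor 1 stood above its group for Asb2, at 0.64 with the next at -3.72, and for Atp2a1, at 1.69 with the next at -1.99. For Eno3 it was at 4.47 with the next at 2.80, for Myl2 at 0.89 with the next at -2.92, and for Tnni1 at 0.12 with the next at -2.13. Those genes span the fast pump, the muscle enolase and slow-fibre forms.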

How the results depend on the processing

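The direction of the member medians held under every alternative run for stroma against tumor and within each tissue, while the interaction's median turned to -0.84 with slide as a fixed block, -0.13 where all arrays had to be well above background and -1.20 without wild-type stroma 65 and 82. Members called between knockout and wild-type stroma numbered 0 with all arrays, 34 higher with array weights, 26 without the arrays against their label of sex, and 0 to 31 when single arrays were left out, with 2 without wild-type stroma 4 and 31 without wild-type stroma 9 (median difference 1.31 to 2.52). The counts over all genes tested in those fits are given with the comparison above. For stroma against tumor, the filter that needs all 32 arrays well above background left 15 members to test and called 14 in each genotype. Of 16860 genes tested there, 3834 were called higher in knockout hosts and 1553 in wild-type hosts. Leaving out single arrays called 36 to 37 members in knockout hosts (median 6.22 to 7.10). Genes called higher there ran from 6835 of 27023 to 7748 of 26977. In wild-type hosts 36 to 40 members were called (5.39 to 6.79), with genes called higher from 2648 of 26869 to 3994 of 27104. Between the tumors 0 members were called (1.03 to 1.99), and 0 in the interaction (-0.31 to 0.99). Array weights took the interaction to 18, with its counts over all genes given above.

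Single members were not all followed under every alternative, so the changes of sign given here are not a full list. Between the stromas, 4 members changed sign without wild-type stroma 65 and 82 (Casq2 -0.31, Actn2 -0.33, Mybpc1 -0.34 and Myoz2 -1.32). Tnnt1 between the tumors turned to 1.29 with slide as a fixed block. It was -0.71 to 0.25 when single arrays were left out, at 0.25 without wild-type tumor 1. Myl2 in stroma against tumor of knockout hosts turned to -0.43 with slide as a fixed block. The causes were not tested. Scaling moved the median of all genes in stroma against tumor of knockout hosts to -0.16 with quantile scaling and 0.14 with bright probes, against -0.03, and the member differences are far larger. Genes called in wild-type hosts numbered 8571, and 13107 without wild-type stroma 65 and 82. With the host number as a block, fixed, 37 members were called in knockout hosts (median 6.90) and 38 in wild-type hosts (6.14), and the interaction's median was 0.60. Of 26726 genes tested there, 6818 were called higher in knockout hosts and 3015 in wild-type hosts. The host numbers do not show that they pair the samples, since 8 of 15 pairs correlated above 0.1 and 4 arrays correlated best with their own number.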
